A study of Mus musculus and Homo sapiens with 65 samples.

Results

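The transcripts described here encode subunits of the nuclear RNA polymerases I, II and III, chosen as every gene whose symbol begins with Polr1, Polr2 or Polr3 followed by letters only. The rule found 28 of the 32287 genes listed in each table, of which 5 carry the digit of polymerase I, 13 that of polymerase II and 10 that of polymerase III. They lie on 17 chromosomes, and GENCODE release M21 annotates all 28 as protein coding. Their levels were measured by RNA-seq in 9 libraries made from mouse embryos at the late 2-cell stage, out of 65 samples in the series. In 2 libraries the embryos had been treated with alpha-amanitin, a fungal toxin that inhibits polymerase II and, at higher doses, polymerase III, at a dose not given in the sources used here. In 2 libraries zygotes had been injected with morpholinos against Kdm5a and Kdm5b, which encode histone demethylases acting on lysine 4 of H3, and in 2 with control morpholinos that mismatch those targets. The other 3 libraries came from wild-type embryos with no stated injection, and embryos of every group were cultured in G1 plus medium. Strain and embryo number are not given for these libraries, and nothing in the labels says that replicates came from separate collections, so p-values measure the spread between libraries, which may be partly technical.

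Nuclear transcription is divided among these enzymes: polymerase I makes the large ribosomal RNA precursor in the nucleolus, polymerase II makes messenger RNAs, and polymerase III makes transfer RNAs, 5S ribosomal RNA and other short RNAs. Each has a pair of large catalytic subunits, an assembly platform, a stalk that meets the emerging RNA, and further subunits for initiation, cleavage or termination. A set of small subunits (encoded by Polr2e, Polr2f, Polr2h, Polr2k and Polr2l) is built into all 3 enzymes, and Polr1c and Polr1d encode a platform used by both I and III. At the late 2-cell stage the mouse embryo takes up broad transcription of its own genes, and transcripts inherited from the egg are being cleared.

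Levels are given as FPKM, which divide the fragments of a gene by its length and by the library total. They may be set beside each other between genes, and a level is always relative to the rest of its library. In wild-type embryos the subunit transcripts spanned a wide range. Polr2b, the second largest subunit of polymerase II, stood highest at 81.9 ± 19.4 FPKM (SD, n = 3), followed by Polr2f at 65.5 ± 12.4 FPKM, Polr1c at 62.7 ± 21.1 FPKM and Polr2j at 53.9 ± 39 FPKM. In every wild-type library the FPKM of Polr2b and Polr2j exceeded the upper bound given beside them. For Polr2b those bounds were 55, 43.1 and 63.7 FPKM, so the places of both genes in the order are uncertain. Polr2a, the largest subunit of polymerase II and the partner of Polr2b in its catalytic core, averaged 11.9 ± 2.21 FPKM. Among the lowest were Polr3e at 4.13 ± 1.47 FPKM, Polr2k at 1.97 ± 0.983 FPKM and Polr3gl at 0.2 ± 0.121 FPKM. Of the 27 pairs of neighbours in this order, the ranges of the 3 libraries overlapped in all but 2, one of them Polr2k with Polr3gl. Relative to its mean, Polr2i varied most between wild-type libraries, from 3.57 to 46.6 FPKM (coefficient of variation 119.8%), and Polr3d least, from 10.3 to 10.8 FPKM (2.28%).

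**Figure D1:**
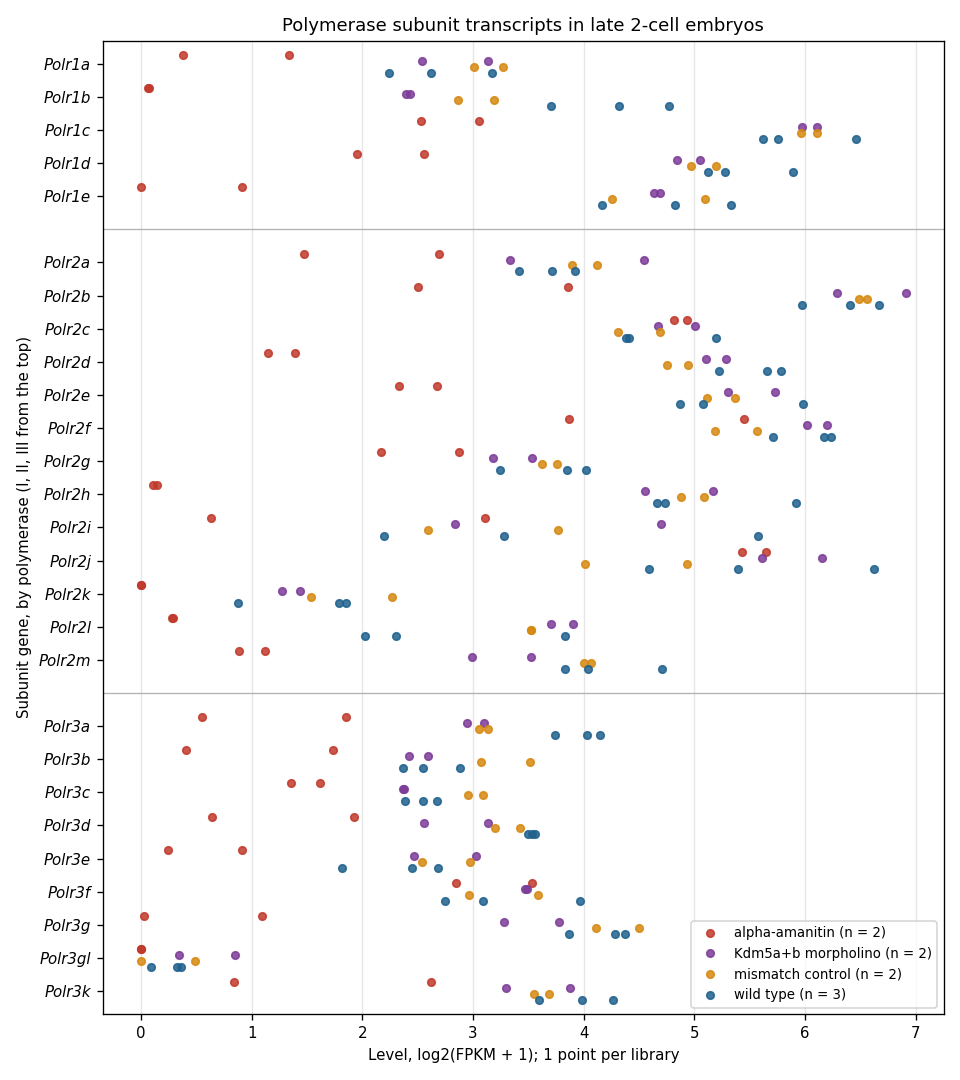
Level of 27 of the 28 subunit genes on the log2(FPKM + 1) scale (horizontal axis), 1 point per library, coloured by group and set out by polymerase. The alpha-amanitin points of most genes lie to the left of all other points, while those of Polr2c, Polr2j and Polr3f lie among them.

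Alpha-amanitin was compared with wild type to ask which subunit transcripts differ when RNA polymerase II is blocked. Of the 27 subunit genes that could be tested, 22 fell and 0 rose at an adjusted p under 0.05, while 25.1% of all 13137 genes tested fell and 4.31% rose. The median log2 change was -2.22 over the subunit genes, against -0.56 over all genes tested, a gap of -1.66. All 5 polymerase I genes fell (median -3.18), as did 10 of 13 polymerase II genes (median -1.81) and 7 of the 9 polymerase III genes tested (median -2.00). Polr2c, Polr2i, Polr2j, Polr3c and Polr3f were not called. In 23 of the 27 genes both alpha-amanitin libraries lay below all wild-type libraries, which was so for 41.1% of all genes tested, and in 0 of them above, against 13.4% of all genes. A log2 change here is a difference in log2(FPKM + 1), tested with limma over all genes with Benjamini-Hochberg adjustment, and the added 1 shrinks the changes of genes with low levels.

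These counts cover the 27 genes with 1 FPKM or more in at least 2 libraries. Of these, 7 (among them Polr1b, Polr1e, Polr2h, Polr2k and Polr2l) had less than 1 FPKM in each alpha-amanitin library and passed that filter through other groups, as did 30.8% of all genes tested. The share of all genes that fell also depended on the filter. With 5 FPKM or more in at least 2 libraries, 37.9% of all 7933 genes tested fell, and their median log2 change was -0.72. FPKM are relative, and the scaling set part of the count: with quantile normalization 11 of the 27 genes were called lower and 0 higher, of which 4 belonged to polymerase I, 5 to II and 2 to III. Of all genes tested 13.7% were then called lower, and lower calls were 51.3% of all calls, against 85.4% without it. The median of all genes was then 0.17. The smallest two-sided p of an exact permutation test on 2 and 3 libraries, taken by doubling a single tail, is 0.2, and the calls come from the model.

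**Figure D2:**
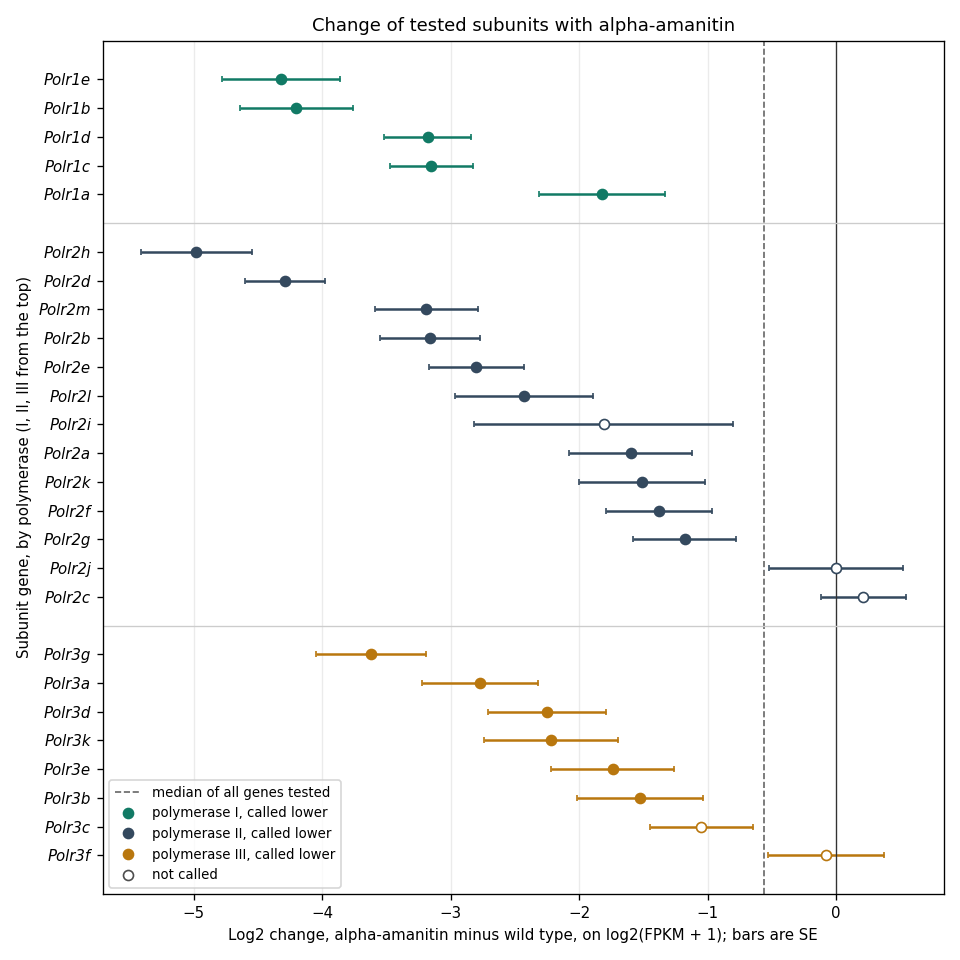
Log2 change of 26 of the 27 tested subunit genes, alpha-amanitin minus wild type, with its SE (n = 2 and 3 libraries); filled points were called lower and open points were not called, and the dashed line marks the median of all genes tested, -0.56. All called genes lie to the left of that line, and Polr2k, listed at 0 in both alpha-amanitin libraries, is drawn at its fitted value.

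Promoter sequences are shown for the genes that mark the ends of this range, since the subunit genes mostly moved together and differ in how far. RefSeq's promoter table (build GRCm38.p6, which shares its coordinates with mm10) held a promoter for 22 of the 28 genes, 24 promoters in all because Polr2h and Polr2m have 2 each, and held none for the other 6, among them Polr2d, Polr2g, Polr2k and Polr3a. Among tested genes with a single promoter in that table, the gene of each polymerase with the lowest and the one with the highest log2 change are printed (Polr2j in place of Polr2c, whose promoter is not printed), 250 bases up to the RefSeq start, 5' to 3' on the gene's strand. Capitals mark matches, on either strand, to short motifs named after the factors known to bind them: CCGGAAG for ETS factors, GGGCGG for SP and KLF factors, GCATGCG for NRF1, AAGATGG for YY1, CCAAT for NFY, and TATAAA for the TATA box. The windows are chr4:45018359-45018608 (plus strand) for Polr1e, chr6:71908803-71909052 (plus) for Polr1a, chr5:77310234-77310483 (plus) for Polr2b, chr5:136116441-136116690 (plus) for Polr2j, chr13:81711014-81711263 (minus) for Polr3g, and chr2:144527495-144527744 (plus) for Polr3f. The gene loci listed with the FPKM do not all begin at the RefSeq start. That of Polr2b begins at base 77310147, before its printed window, and those of Polr1e, Polr2j and Polr3f begin inside theirs.
Polr1e: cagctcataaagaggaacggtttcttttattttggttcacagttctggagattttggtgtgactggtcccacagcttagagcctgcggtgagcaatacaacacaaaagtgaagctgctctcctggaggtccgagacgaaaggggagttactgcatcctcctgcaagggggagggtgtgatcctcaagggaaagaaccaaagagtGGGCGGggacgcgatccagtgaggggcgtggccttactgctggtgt
Polr1a: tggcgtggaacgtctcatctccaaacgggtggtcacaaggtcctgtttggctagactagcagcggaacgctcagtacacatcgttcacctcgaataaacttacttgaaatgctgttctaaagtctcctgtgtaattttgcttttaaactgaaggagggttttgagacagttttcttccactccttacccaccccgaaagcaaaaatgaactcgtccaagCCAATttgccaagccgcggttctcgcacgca
Polr2b: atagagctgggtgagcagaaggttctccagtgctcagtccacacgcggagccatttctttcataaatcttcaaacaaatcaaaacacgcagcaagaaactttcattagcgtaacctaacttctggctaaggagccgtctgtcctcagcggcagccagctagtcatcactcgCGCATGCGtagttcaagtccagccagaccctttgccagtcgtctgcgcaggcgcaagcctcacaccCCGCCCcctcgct
Polr2j: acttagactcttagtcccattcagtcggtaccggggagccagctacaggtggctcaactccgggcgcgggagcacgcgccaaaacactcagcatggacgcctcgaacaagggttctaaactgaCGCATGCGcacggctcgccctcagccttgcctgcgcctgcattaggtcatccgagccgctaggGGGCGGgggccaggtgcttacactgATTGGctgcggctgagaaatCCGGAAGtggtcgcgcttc
Polr3g: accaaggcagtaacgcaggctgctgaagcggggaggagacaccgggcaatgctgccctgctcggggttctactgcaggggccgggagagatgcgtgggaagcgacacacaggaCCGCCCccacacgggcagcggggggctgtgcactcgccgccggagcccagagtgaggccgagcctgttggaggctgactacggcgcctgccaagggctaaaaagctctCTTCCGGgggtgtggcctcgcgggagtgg
Polr3f: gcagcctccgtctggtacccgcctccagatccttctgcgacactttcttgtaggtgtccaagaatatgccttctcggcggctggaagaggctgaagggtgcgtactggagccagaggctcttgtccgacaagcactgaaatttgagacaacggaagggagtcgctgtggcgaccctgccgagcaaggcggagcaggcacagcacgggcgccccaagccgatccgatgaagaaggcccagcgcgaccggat

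In these printed windows the Polr1e promoter held 1 SP/KLF motif, at base -46 from the RefSeq start, and Polr1a 1 NFY motif, at -31. Polr2b, which fell, and Polr2j, which was not called, each held the NRF1 motif on both strands in overlapping letters, at -79 and -78 in Polr2b and at -127 and -126 in Polr2j. Polr2b also held an SP/KLF motif on the reverse strand at -13. Polr2j held an SP/KLF motif at -64, an NFY motif on the reverse strand at -39 and an ETS motif at -19. Polr3g held an SP/KLF motif at -137 and an ETS motif at -29, both on the reverse strand, and no motif was in the printed Polr3f window. Over the table's full windows of 300 bases, which also take in the first 50 bases of the transcript, the SP/KLF motif was in 62.5% of the 24 subunit promoters and in 35.7% of all 32851 promoters, and the ETS motif in 29.2% of subunit promoters and 8.86% of all. In the same order, subunit promoters before all promoters, the shares were 8.33% and 3.58% for NRF1, 29.2% and 37.4% for NFY, 8.33% and 13.6% for the TATA box, and 0% and 6.34% for YY1. GC content had a median of 60.0% in the subunit promoters and 52.7% in all promoters, with a median of 22 CpG dinucleotides in the subunit promoters and 7 in all. The ETS motif lay in promoters of genes that fell (Polr1c, Polr1e, Polr2f, Polr3b and Polr3g) and of genes that were not called (Polr2c and Polr2j). These matches describe letters in the windows and were not tested against the changes in level.

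All 5 polymerase I genes fell with alpha-amanitin. Polr1a, its largest catalytic subunit, was at 1.53 and 0.304 FPKM with alpha-amanitin, 7.79 and 4.82 FPKM with the Kdm5a+b morpholinos, 8.62 and 7.03 FPKM in mismatch controls, and 5.15, 3.73 and 8.01 FPKM in wild type. Both alpha-amanitin values lay below every other library, and Polr1a fell by 1.82 (log2; SE 0.49, adjusted p = 0.0174). Its partner in the catalytic core, Polr1b, was at 0.0512 and 0.0457 FPKM with alpha-amanitin, 4.26 and 4.4 FPKM with the Kdm5a+b morpholinos, 6.28 and 8.14 FPKM in mismatch controls, and 19, 26.3 and 12 FPKM in wild type. The groups formed separate steps, with wild type highest and alpha-amanitin near 0, and Polr1b fell by 4.20 with alpha-amanitin (SE 0.44, adjusted p = 5.44e-05). Within a library, which removes its scaling, the ratio of Polr1b to Polr1a was 0.0335 and 0.15 with alpha-amanitin, 0.547 and 0.913 with the Kdm5a+b morpholinos, 0.729 and 1.16 in mismatch controls, and 3.7, 7.06 and 1.5 in wild type, without overlap between alpha-amanitin and any other group.

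Polr1e, which forms a heterodimer of the initiation machinery with the product of Cd3eap, was at 0.884 and 9.24e-10 FPKM with alpha-amanitin, 23.8 and 24.8 FPKM with the Kdm5a+b morpholinos, 33.2 and 18.1 FPKM in mismatch controls, and 27.4, 39.3 and 16.9 FPKM in wild type. Its alpha-amanitin values were at or near 0, and it fell by 4.32 (SE 0.46, adjusted p = 6.15e-05). The platform genes shared by polymerases I and III, Polr1c and Polr1d, also fell. Polr1c was at 7.31 and 4.76 FPKM with alpha-amanitin, 61.8 and 67.8 FPKM with the Kdm5a+b morpholinos, 67.9 and 61.2 FPKM in mismatch controls, and 48.1, 86.9 and 53 FPKM in wild type, and fell by 3.15 (SE 0.32, adjusted p = 4.38e-05). Polr1d was at 4.87 and 2.86 FPKM with alpha-amanitin, 32.1 and 27.7 FPKM with the Kdm5a+b morpholinos, 30.4 and 35.5 FPKM in mismatch controls, and 37.8, 58.4 and 33.8 FPKM in wild type, and fell by 3.18 (SE 0.34, adjusted p = 6.44e-05). For both genes the alpha-amanitin values lay below every other library. The calls of Polr1b, Polr1c, Polr1d and Polr1e held in all 18 alternative settings run, whereas that of Polr1a was lost without alpha-amanitin replicate 2 (log2 -1.34, adjusted p = 0.141) and without wild-type replicate 3 (log2 -1.57, adjusted p = 0.0561). Polr1e overlaps the protein-coding gene Fbxo10 on the opposite strand, and the FPKM of Polr1e in 4 libraries and of Polr1b in 1 stood above the upper bound given in the same table.

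In the catalytic core of polymerase II, Polr2a encodes the largest subunit, which carries the C-terminal repeat domain and binds alpha-amanitin. It was at 5.46 and 1.77 FPKM with alpha-amanitin, 22.3 and 9.07 FPKM with the Kdm5a+b morpholinos, 16.4 and 13.9 FPKM in mismatch controls, and 9.69, 12.1 and 14.1 FPKM in wild type. Both alpha-amanitin libraries were lowest, and Polr2a fell by 1.60 (SE 0.48, adjusted p = 0.0297). Polr2b, the second largest subunit, was at 4.68 and 13.5 FPKM with alpha-amanitin, 76.9 and 119 FPKM with the Kdm5a+b morpholinos, 88.6 and 93.1 FPKM in mismatch controls, and 83.8, 61.7 and 100.3 FPKM in wild type. It fell by 3.16 (SE 0.39, adjusted p = 0.000184), with no overlap of alpha-amanitin with another group. In 8 of the 9 libraries the FPKM of Polr2b stood above its own upper bound, for example 83.8 FPKM against a bound of 55 FPKM in wild-type replicate 1.

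Polr2c and Polr2j, which encode the platform pair of polymerase II and are the counterparts of Polr1c and Polr1d, were not called. Polr2c was at 29.5 and 27.1 FPKM with alpha-amanitin, 31.1 and 24.4 FPKM with the Kdm5a+b morpholinos, 24.8 and 18.8 FPKM in mismatch controls, and 20.2, 35.6 and 19.8 FPKM in wild type. Polr2j was at 49.2 and 42 FPKM with alpha-amanitin, 70.3 and 47.7 FPKM with the Kdm5a+b morpholinos, 29.6 and 15.1 FPKM in mismatch controls, and 41, 23 and 97.6 FPKM in wild type. The alpha-amanitin values of both genes lay inside the wild-type range, with log2 changes of 0.21 (SE 0.33, adjusted p = 0.665) and 0.00 (SE 0.52, adjusted p = 0.998). These were the highest changes among the subunit genes, and Polr2c was not called in any of the 18 settings. The FPKM of Polr2j exceeded its upper bound in 8 libraries, and Polr2c and Polr2j each overlap a protein-coding gene on the opposite strand (Dok4 and Lrwd1), whose reads cannot be told apart where counting ignored strand. Polr2b and Polr2h, which fell, and Polr2i, which was not called, likewise overlap protein-coding genes on the opposite strand (Igfbp7, Clcn2 and Tbcb).

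Polr2d and Polr2g encode the stalk of polymerase II. Polr2d was at 1.21 and 1.62 FPKM with alpha-amanitin, 33.4 and 37.9 FPKM with the Kdm5a+b morpholinos, 25.9 and 29.8 FPKM in mismatch controls, and 36.3, 54 and 49.3 FPKM in wild type. It fell by 4.29 (SE 0.31), with the lowest adjusted p among the subunit genes, 6.26e-06. Its partner Polr2g was at 6.33 and 3.5 FPKM with alpha-amanitin, 8.06 and 10.6 FPKM with the Kdm5a+b morpholinos, 12.5 and 11.3 FPKM in mismatch controls, and 8.48, 15.2 and 13.4 FPKM in wild type. Alpha-amanitin lay below every other library, and the change of Polr2g was -1.18 (SE 0.40, adjusted p = 0.0463), and it was called in 4 of the 18 alternative settings. Leaving out 1 library ended its call in 7 of 9 cases, with adjusted p up to 0.259 without alpha-amanitin replicate 2.

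Of the remaining polymerase II genes, Polr2i encodes a subunit for cleavage of backtracked RNA and fidelity, and Polr2m an associated factor that restrains polymerase II. Polr2i was at 0.549 and 7.6 FPKM with alpha-amanitin, 25 and 6.13 FPKM with the Kdm5a+b morpholinos, 12.6 and 5.05 FPKM in mismatch controls, and 3.57, 46.6 and 8.72 FPKM in wild type. Its replicates differed more than its groups, and its log2 change of -1.81 (SE 1.01, adjusted p = 0.206) was not called. Polr2m was at 1.17 and 0.844 FPKM with alpha-amanitin, 10.5 and 6.95 FPKM with the Kdm5a+b morpholinos, 15.7 and 15 FPKM in mismatch controls, and 13.2, 25.1 and 15.4 FPKM in wild type. It fell by 3.19 (SE 0.40, adjusted p = 0.000186), and its call held in all 18 settings.

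The small subunits built into all 3 enzymes were all called lower with alpha-amanitin. Polr2h showed the largest fall of any tested subunit gene: it was at 0.0809 and 0.107 FPKM with alpha-amanitin, 22.5 and 35 FPKM with the Kdm5a+b morpholinos, 28.4 and 32.9 FPKM in mismatch controls, and 24.3, 59.5 and 25.6 FPKM in wild type. It fell by 4.98 (SE 0.43, adjusted p = 1.79e-05). Polr2e was at 4.04 and 5.4 FPKM with alpha-amanitin, 38.4 and 52.1 FPKM with the Kdm5a+b morpholinos, 33.6 and 40.2 FPKM in mismatch controls, and 28.3, 32.8 and 62.2 FPKM in wild type, and fell by 2.80 (SE 0.37, adjusted p = 0.000265). For both genes the alpha-amanitin libraries stood far below the rest, and both calls held in all 18 settings. Polr2l was at 0.212 and 0.225 FPKM with alpha-amanitin, 14 and 12 FPKM with the Kdm5a+b morpholinos, 10.5 and 10.5 FPKM in mismatch controls, and 3.93, 3.07 and 13.2 FPKM in wild type, and fell by 2.43 (SE 0.54, adjusted p = 0.00657).

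Polr2f had the smallest log2 change of the shared genes. It was at 42.6 and 13.6 FPKM with alpha-amanitin, 72.5 and 63.8 FPKM with the Kdm5a+b morpholinos, 46.2 and 35.3 FPKM in mismatch controls, and 70.9, 51.3 and 74.4 FPKM in wild type. Its first alpha-amanitin library lay within the mismatch control range, and it fell by 1.38 (SE 0.41, adjusted p = 0.0284). That call was lost without alpha-amanitin replicate 2 (log2 -0.59, adjusted p = 0.258) and without wild-type replicate 1 (adjusted p = 0.0674) or 3 (adjusted p = 0.0796). Polr2k had a listed value of 0 with alpha-amanitin, in both libraries. It had 1.71 and 1.42 FPKM with the Kdm5a+b morpholinos, 1.9 and 3.82 FPKM in mismatch controls, and 2.61, 0.839 and 2.46 FPKM in wild type. It was called lower (adjusted p = 0.0401), but its call was lost without any of 6 libraries, with adjusted p of 0.0587 to 0.15. The status listed beside the value was OK for every subunit gene in both alpha-amanitin libraries. A listed 0 may still be a failed estimate, so no fold is given for Polr2k. The processed pseudogene Polr2k-ps was listed at 0 in all libraries. The call of Polr2a was lost without alpha-amanitin replicate 2 (log2 -0.99, adjusted p = 0.227) and without wild-type replicate 2 (adjusted p = 0.0617) or 3 (adjusted p = 0.0808), and the count of polymerase II genes called was 6 without alpha-amanitin replicate 2 and 6 without wild-type replicate 3.

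In polymerase III, Polr3a and Polr3b encode the catalytic core. Polr3a was at 0.465 and 2.62 FPKM with alpha-amanitin, 7.56 and 6.71 FPKM with the Kdm5a+b morpholinos, 7.77 and 7.3 FPKM in mismatch controls, and 12.4, 16.7 and 15.3 FPKM in wild type. Alpha-amanitin was lowest and wild type highest with no overlap, and Polr3a fell by 2.77 with alpha-amanitin (SE 0.45, adjusted p = 0.00102). Polr3b was at 2.32 and 0.328 FPKM with alpha-amanitin, 5.04 and 4.36 FPKM with the Kdm5a+b morpholinos, 7.4 and 10.4 FPKM in mismatch controls, and 4.17, 4.84 and 6.35 FPKM in wild type. Its change of -1.53 (SE 0.49, adjusted p = 0.0385) was called in 6 of the 18 settings and in 1 of the 9 that leave out a library, with adjusted p up to 0.295 without alpha-amanitin replicate 2.

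The initiation trimer of polymerase III, which helps open promoter DNA, consists of the products of Polr3c, Polr3f and either Polr3g or its paralogue Polr3gl; Polr3g is known as the form of pluripotent cells. Polr3g was at 1.13 and 0.0202 FPKM with alpha-amanitin, 8.68 and 12.7 FPKM with the Kdm5a+b morpholinos, 21.6 and 16.3 FPKM in mismatch controls, and 13.6, 19.7 and 18.5 FPKM in wild type. It showed the largest fall in polymerase III, 3.62 (SE 0.43, adjusted p = 0.000128), and its call held in all 18 settings. Polr3gl had a listed value of 0 with alpha-amanitin, in both libraries. It had 0.804 and 0.267 FPKM with the Kdm5a+b morpholinos, 0.404 and 0 FPKM in mismatch controls, and 0.0619, 0.283 and 0.256 FPKM in wild type. It stayed under 1 FPKM everywhere, was not tested, and lies over the protein-coding Gm16253 on the opposite strand for 2792 bases. Within wild-type libraries Polr3g was 220.0, 69.6 and 72.2 times the level of Polr3gl.

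The other genes of the trimer, Polr3f and Polr3c, were not called. Polr3f was at 6.17 and 10.6 FPKM with alpha-amanitin, 10.1 and 10.2 FPKM with the Kdm5a+b morpholinos, 6.78 and 11 FPKM in mismatch controls, and 7.49, 14.6 and 5.72 FPKM in wild type. Its groups overlapped fully, with a log2 change of -0.08 (SE 0.45, adjusted p = 0.915) that was 0.76 with quantile normalization and 0.07 on TPM. Polr3c was at 1.56 and 2.07 FPKM with alpha-amanitin, 4.18 and 4.16 FPKM with the Kdm5a+b morpholinos, 6.74 and 7.49 FPKM in mismatch controls, and 5.38, 4.22 and 4.84 FPKM in wild type. Both alpha-amanitin values lay below every other library, but the change of -1.05 (SE 0.40, adjusted p = 0.0717) was not called.

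Polr3d and Polr3e encode a heterodimer for initiation and termination. Polr3d was at 2.8 and 0.557 FPKM with alpha-amanitin, 7.79 and 4.87 FPKM with the Kdm5a+b morpholinos, 8.19 and 9.76 FPKM in mismatch controls, and 10.3, 10.6 and 10.8 FPKM in wild type, and fell by 2.25 (SE 0.46, adjusted p = 0.00411). Polr3e was at 0.879 and 0.187 FPKM with alpha-amanitin, 4.53 and 7.13 FPKM with the Kdm5a+b morpholinos, 6.83 and 4.8 FPKM in mismatch controls, and 2.52, 5.41 and 4.47 FPKM in wild type, and fell by 1.74 (SE 0.48, adjusted p = 0.0201). In both genes alpha-amanitin stood below every other library. Polr3k, a subunit for RNA cleavage and termination, was at 0.785 and 5.16 FPKM with alpha-amanitin, 8.85 and 13.7 FPKM with the Kdm5a+b morpholinos, 11.9 and 10.7 FPKM in mismatch controls, and 14.8, 18.2 and 11.1 FPKM in wild type, and fell by 2.22 (SE 0.52, adjusted p = 0.00849). The call of Polr3e was lost without alpha-amanitin replicate 2 (adjusted p = 0.14) and without wild-type replicate 2 (adjusted p = 0.0526) or 3 (adjusted p = 0.052), and that of Polr3k without alpha-amanitin replicate 1 (log2 -1.32, adjusted p = 0.0719).

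Sorted by the enzymes that each subunit is part of, rather than by the digit in the name, the 3 genes found in polymerase I alone all fell (median log2 change -4.20). The 2 platform genes of I and III both fell (median -3.17), as did the 5 genes shared by all 3 enzymes (median -2.43). Of the 8 genes of polymerase II alone 5 fell (median -1.71), and of the 9 tested genes of polymerase III alone 7 fell (median -2.00). The differences in median between the enzymes were not tested. In bulk embryo RNA, fewer cells with a transcript and less of it per cell cannot be told apart. FPKM are relative to the library, so they do not give amounts of RNA per embryo.

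Summed within each library, polymerase I genes made up 8.33% and 5.42% of the FPKM of all 28 subunit genes with alpha-amanitin, 21.1% and 20.8% with the Kdm5a+b morpholinos, 25.5% and 24.3% in mismatch controls, and 24.6%, 29.3% and 17.6% in wild type. Polymerase II genes made up 82.4% and 79.8% with alpha-amanitin, 69.3% and 68.3% with the Kdm5a+b morpholinos, 60.4% and 60.7% in mismatch controls, and 62%, 57.4% and 70.7% in wild type. For polymerase III the shares were 9.23% and 14.8% with alpha-amanitin, 9.63% and 10.9% with the Kdm5a+b morpholinos, 14.1% and 15.1% in mismatch controls, and 13.3%, 13.3% and 11.7% in wild type. With alpha-amanitin the share of polymerase I was therefore below and that of polymerase II above every wild-type library, while the shares of polymerase III overlapped. The sums themselves were 176 and 147 FPKM with alpha-amanitin, 616 and 623 FPKM with the Kdm5a+b morpholinos, 574 and 535 FPKM in mismatch controls, and 558, 733 and 702 FPKM in wild type. Polr2c, Polr2f and Polr2j held most of what was left with alpha-amanitin.

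**Figure D3:**
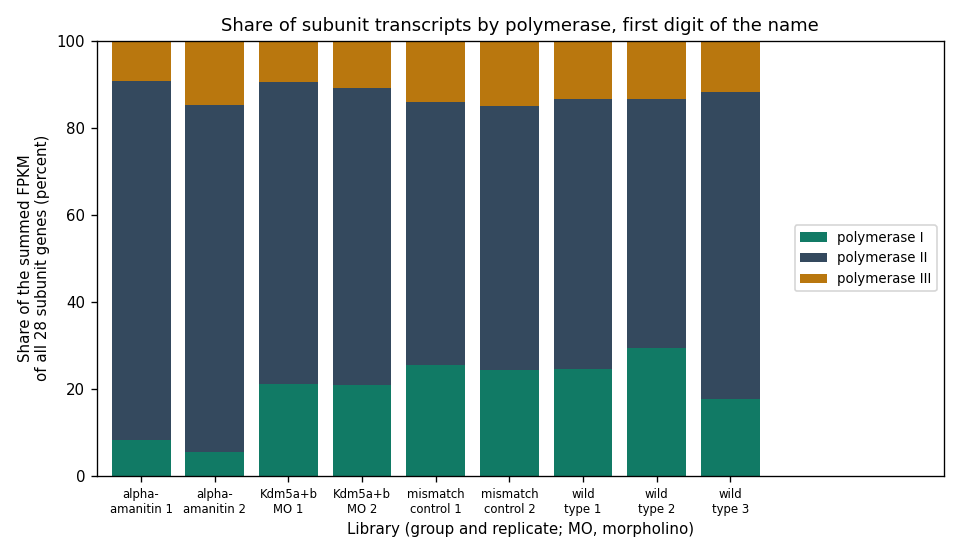
Share of the summed FPKM of the 28 subunit genes (vertical axis, percent) held by the genes of polymerases I, II and III in each of the 9 libraries. The polymerase I share is 8.33% and 5.42% in the alpha-amanitin libraries and 17.6% or more in all others.

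The alpha-amanitin libraries also stood apart in other ways. Markers of the 2-cell embryo (7 genes, among them Zscan4c and Zfp352) summed to 17.1 to 18.5 FPKM with alpha-amanitin and 256 to 347 FPKM in wild type, and transcripts stored in the oocyte (Zp3, Gdf9, Bmp15, Nlrp5 and Ooep) to 583 to 659 FPKM with alpha-amanitin and 253 to 349.9 FPKM in wild type. Most of the oocyte sum was Bmp15, at 463 and 487 FPKM with alpha-amanitin and 229, 154 and 219 FPKM in wild type. Zp3, at 31.6 and 11.7 FPKM with alpha-amanitin and 14.8 to 23.9 FPKM in wild type, lay on either side of wild type, and for Gdf9, Nlrp5 and Ooep alpha-amanitin replicate 1 lay inside the wild-type range and replicate 2 above it. In the morpholino libraries the 2-cell markers summed to 300.4 to 404 FPKM and the oocyte transcripts to 277 to 297 FPKM. Markers of cumulus and granulosa, sperm, blood and oviduct cells summed to at most 8.58 FPKM in any library. The precision also differed: the median distance of the table's bounds from each other, divided by 2, over 19 subunit genes was 24.3% and 37.5% of the FPKM with alpha-amanitin and 8.06% to 12.8% in the other libraries. The part of any of these in the fall of the subunit genes was not tested.

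Other genes of the polymerase pathways were counted from lists, against the 25.1% of all genes tested that fell (37.9% with a filter of 5 FPKM). Of the subunits filed under other symbols (Znrd1, Twistnb, Cd3eap and Crcp) 4 of 4 fell with alpha-amanitin, with a median log2 change of -3.59. All 4 had less than 1 FPKM in each alpha-amanitin library. They passed the filter through other groups, as did 30.8% of all genes tested. Znrd1, which encodes the cleavage subunit of polymerase I, had a listed value of 0 in each alpha-amanitin library and values of 38.3, 27.2 and 23.3 FPKM in wild type (adjusted p = 7.01e-06), and Cd3eap, the partner of Polr1e, was at 0 in both alpha-amanitin libraries and at 14.5, 14.1 and 8.38 FPKM in wild type (adjusted p = 7.08e-05). As for Polr2k, a listed 0 may be a failed estimate. Crcp, a polymerase III stalk subunit, fell by 3.49 (SE 0.82, adjusted p = 0.00872). All 8 polymerase I initiation and termination factors fell (median -2.30), led by Taf1d, a promoter selectivity subunit, at -4.29 (SE 0.28), Ubtf, which binds ribosomal DNA, at -3.44 (SE 0.36), and Ttf1, the terminator-binding factor, at -2.87 (SE 0.48). Among these factors, Ptrf, Taf1b, Taf1c and Ttf1 had less than 1 FPKM in each alpha-amanitin library and likewise passed the filter through other groups.

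Of 17 polymerase III factors and regulators 11 fell (median -2.06), led by Gtf3c5, Gtf3c6 and Gtf3c4, subunits of the promoter-binding complex TFIIIC, at -4.27, -3.95 and -3.85. Gtf3c2 of the same complex was not called (log2 -0.47, adjusted p = 0.131), with 107 and 90.1 FPKM in alpha-amanitin libraries and 123, 150.3 and 137 FPKM in wild type. Of 30 tested genes for polymerase II elongation and C-terminal domain enzymes 16 fell (median -1.37), led by the elongation factor genes Paf1 at -4.84 (SE 0.51) and Supt4a at -4.64 (SE 0.38) and the cyclin gene Ccnt1 at -4.00 (SE 0.40). Of 18 polymerase assembly and import factors 9 fell (median -1.93), led by Pdrg1 at -4.51, Pfdn2 at -3.55 and Gpn1 at -3.24, and of 4 tested genes of mitochondrial transcription 1 fell, a share close to that of all genes: Polrmt, the mitochondrial RNA polymerase, at -3.51 (SE 0.52, adjusted p = 0.000617). Several of the genes called lower had less than 1 FPKM in each alpha-amanitin library. They were Gtf3c4, Gtf3c5, Brf1, Snapc2, Mnat1, Rprd1b, Rprd2, Nelfb, Nelfcd, Gpn1, Ruvbl1 and Polrmt. These genes passed the filter through other groups, as did 30.8% of all genes tested. No gene of these lists was called higher, except for 1 gene of elongation with quantile normalization, on TPM and with the filter of 5 FPKM, and 2 genes of assembly with quantile normalization. Some of these counts moved with the setting: 4 of the polymerase I factors and 7 of the polymerase III factors were called lower with quantile normalization. Without alpha-amanitin replicate 2 the polymerase I factors gave 5 calls and the subunits under other symbols 2, and without any 1 of the wild-type libraries 2 mitochondrial genes were called.

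**Figure D4:**
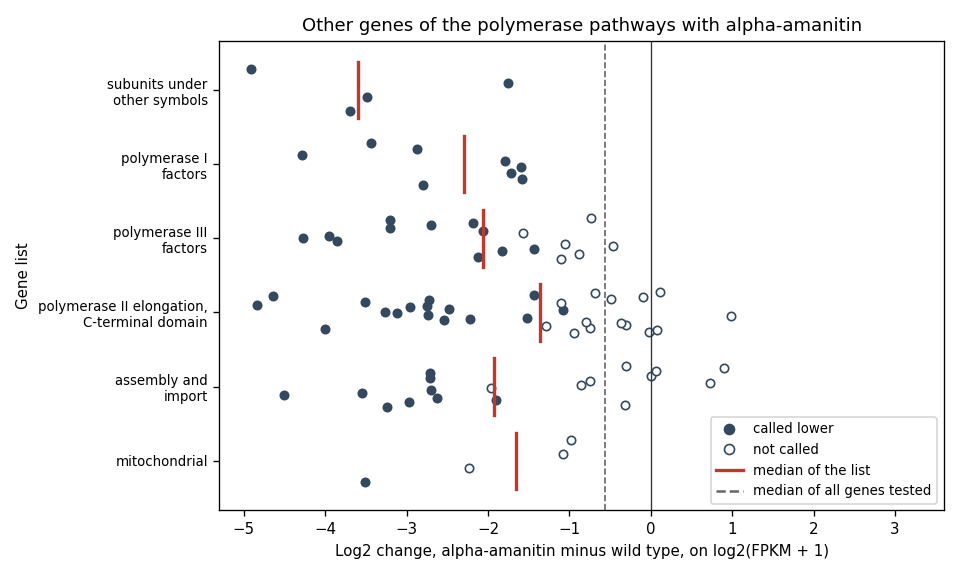
Log2 change of each tested gene of the other polymerase lists, alpha-amanitin minus wild type, with filled points for genes called lower, a red bar at each list's median and a dashed line at the median of all genes, -0.56. The medians run from -3.59 for subunits under other symbols to -1.37 for polymerase II elongation and C-terminal domain genes.

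The Kdm5a+b morpholinos were compared with the mismatch controls to ask whether the same subunit transcripts differ when both demethylases are targeted in injected embryos. Kdm5a itself had 19.5 and 15.3 FPKM in Kdm5a+b morpholino libraries and 12.8 and 9.44 FPKM in mismatch controls (log2 0.61, SE 0.42, adjusted p = 1), and Kdm5b had 38.1 and 27.6 FPKM in Kdm5a+b morpholino libraries and 55.3 and 39.6 FPKM in mismatch controls (log2 -0.52, SE 0.53, adjusted p = 1). A morpholino can block translation without lowering the RNA, and RNA levels of the targets are therefore no test of the labels. None of the 27 genes was called by limma, nor was any of the 13137 genes (0% called). An unadjusted p under 0.05, which makes no allowance for the number of tests, was reached by 414 genes. The median log2 change was -0.14 for polymerase I, 0.28 for II and -0.19 for III, against 0.00 for all genes. The largest change was that of Polr2j, the platform subunit of polymerase II, which had 70.3 and 47.7 FPKM with the Kdm5a+b morpholinos and 29.6 and 15.1 FPKM in mismatch controls. The groups did not overlap, with a log2 change of 1.41 (SE 0.57), an unadjusted p of 0.0317 and an adjusted p of 1. Both Kdm5a+b values of Polr2j lay inside its wild-type range of 23 to 97.6 FPKM. Against wild type, the mismatch controls had a log2 change of -1.06 for Polr2j (SE 0.52, limma unadjusted p = 0.0668, adjusted p = 0.999). In all Kdm5a+b and mismatch control libraries the FPKM of Polr2j exceeded its upper bound, and the gene overlaps Lrwd1. Polr2j was the only subunit gene with an unadjusted p under 0.05, and 0 of the 27 were lower at that p; of all genes 1.85% were higher and 1.3% lower.

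In 8 of the 27 genes both Kdm5a+b libraries lay below both mismatch controls, against 16.8% of all genes, and in 4 both lay above, against 16.5%. Those below included Polr3g, which had 8.68 and 12.7 FPKM with the Kdm5a+b morpholinos and 21.6 and 16.3 FPKM in mismatch controls (log2 -0.78, SE 0.47, adjusted p = 1), and Polr2m, which had 10.5 and 6.95 FPKM with the Kdm5a+b morpholinos and 15.7 and 15 FPKM in mismatch controls (log2 -0.77, SE 0.44, adjusted p = 1). Polr2f, shared by all 3 enzymes, lay above: it had 72.5 and 63.8 FPKM with the Kdm5a+b morpholinos and 46.2 and 35.3 FPKM in mismatch controls (log2 0.74, SE 0.45, adjusted p = 1). Wild-type libraries had 70.9, 51.3 and 74.4 FPKM of Polr2f, a range that held both Kdm5a+b values and stood above both mismatch controls. The Kdm5a+b values of Polr3g and Polr2m lay below every wild-type library. An adjusted p of 1 does not show that the levels were equal. The smallest two-sided p of an exact permutation test is 0.333 here.

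The mismatch controls were set against wild type as a measure of injection and control oligomers together; these controls serve in the previous comparison too, and the wild-type libraries in the first. Again none of the 27 genes was called by limma (0% of all genes), with 616 of all genes at an unadjusted p under 0.05, and the medians were -0.10 for polymerase I, -0.12 for II and 0.01 for III, against -0.01 for all genes. In 5 genes both mismatch controls lay below all wild-type libraries (8.85% of all genes did) and in 2 above (9.26% did). Those below were Polr1b, Polr2d, Polr2f, Polr3a and Polr3d, and those above were Polr3b and Polr3c. In Polr3b and Polr3c the Kdm5a+b libraries lay below these same mismatch controls. Polr1b, of the polymerase I core, had 6.28 and 8.14 FPKM in mismatch controls and 19, 26.3 and 12 FPKM in wild type, without overlap (log2 -1.24, SE 0.44, unadjusted p = 0.0167, adjusted p = 0.999). Polr2d, of the polymerase II stalk, had 25.9 and 29.8 FPKM in mismatch controls and 36.3, 54 and 49.3 FPKM in wild type (log2 -0.70, SE 0.31, unadjusted p = 0.0434, adjusted p = 0.999). Polr3a, of the polymerase III core, had 7.77 and 7.3 FPKM in mismatch controls and 12.4, 16.7 and 15.3 FPKM in wild type (log2 -0.88, SE 0.45, unadjusted p = 0.0768, adjusted p = 0.999). Polr1b and Polr2d were the 2 subunit genes lower at an unadjusted p under 0.05 and 0 were higher, against 2.15% of all genes lower and 2.54% higher.

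**Figure D5:**
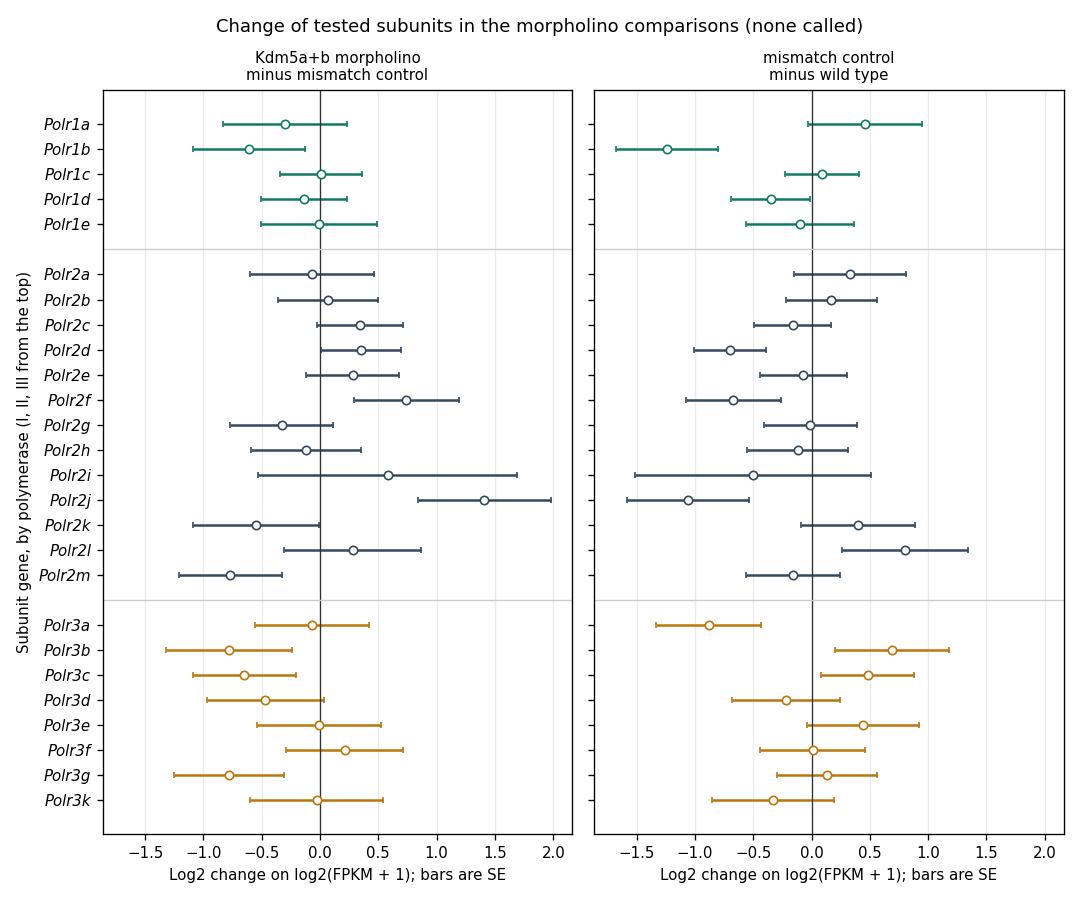
Log2 change of 26 of the 27 tested subunit genes with its SE, Kdm5a+b morpholino minus mismatch control (left panel, n = 2 and 2 libraries) and mismatch control minus wild type (right panel, n = 2 and 3), by polymerase. No gene was called, and the points lie between -1.24 (Polr1b, right) and 1.41 (Polr2j, left).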

How the data were processed

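RNA-seq of 9 libraries of mouse late 2-cell embryos was used. Libraries were made by the TruSeq procedure from RNeasy Micro RNA, per the labels' protocols. Tools named without roles for the whole series in the submitters' processing notes were BWA, Picard, Cufflinks, Trimmomatic, Bismark (12.5) and SAMtools, and the build was mm10. No source used here gives the RNA-seq aligner, the annotation release or the use of strand. The tables deposited by the authors follow the Cufflinks layout, per the file headers, and hold the FPKM of 32287 genes with a lower and upper bound of each. Read counts are not part of these tables, so depth is unknown and the bounds cover fragment counting and assignment only.

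Group-only linear models were fitted to all 9 libraries with limma 3.58.1 (R 4.3.3) on log2(FPKM + 1), eBayes with trend, over 13137 genes at 1 FPKM or more in at least 2 libraries; with 5 residual degrees of freedom, two-sided p-values were adjusted by Benjamini-Hochberg and called under 0.05. Code was tested on simulated data. The values of 1 subunit gene are not reported here, although counts, medians and sums over the subunit genes include it. Subunit genes and lists were chosen with earlier results of these data known. Values in every library are given for the core, shared and platform subunits, the paralogue pair, the genes not tested or not called, and those with the highest levels or largest changes; of each list the 3 largest called changes are named, and Gtf3c2 was added after its values were seen. Alternatives were a pseudocount of 0.1, no filter, a filter of 5 FPKM, TPM, quantile normalization, a replicate block, eBayes without trend, array weights, only the 2 groups compared, each library left out, and assignment by enzyme. Motifs and overlaps came from RefSeq GRCm38.p6 promoters and GENCODE M21. ChIP-seq, bisulfite and low-input RNA libraries were not analysed here.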

Additional observations from a re-analysis of the deposited data

How the results depend on the processing

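In the alpha-amanitin comparison, 11 of the 22 called subunit genes kept their call and direction in every alternative run for them (Polr1b, Polr1c, Polr1d, Polr1e, Polr2b, Polr2d, Polr2e, Polr2h, Polr2m, Polr3a and Polr3g), and 11 lost it in at least 1. Quantile normalization had the widest effect: 11 genes called lower in place of 22 (5 of polymerase II, 2 of III), while the share of all genes called lower was 13.7% in place of 25.1%, and medians of -2.46 for polymerase I, -1.09 for II and -0.92 for III. Medians for II and III were -2.84 and -2.52 on TPM and -3.02 and -2.93 with a pseudocount of 0.1. The polymerase II count was 6 with no filter and 6 with only the 2 groups compared. The cause of these differences was not tested. Leaving out each library in turn gave 15 to 20 genes called lower (4 to 5 for polymerase I, 6 to 9 for II, 5 to 6 for III) and medians of -3.48 to -2.89 for I, -2.56 to -1.81 for II and -2.07 to -1.60 for III. Assigned by enzyme, the mean share of the subunit FPKM was 0.819% with alpha-amanitin and 7.98% in wild type for polymerase I, and 61.2% and 40.5% for II.

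The sign turned only in genes that were not called: Polr3f (0.07 on TPM, 0.03 with array weights, 0.76 with quantile normalization, and from -0.42 to 0.27 with 1 library left out), Polr3c (0.01 with quantile normalization) and Polr2j (-0.16 with array weights and from -0.47 to 0.55 with 1 library left out). In both morpholino comparisons 0 subunit genes were called in any alternative; over all genes, no filter gave 10 lower and 17 higher with the Kdm5a+b morpholinos and 11 higher in mismatch controls, and leaving out 1 library gave at most 3 in either direction. Deviations of libraries with the same replicate number correlated at -0.0477 to 0.041 across genes. These values gave no sign of pairing but cannot exclude it, because in a group of 2 libraries the deviations mirror each other. With a replicate block 17 subunit genes were called lower with alpha-amanitin, and 0 in the other comparisons.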

Other observations

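Some ratios between subunit genes, and the level of Polr2i, differed widely between replicate libraries. The ratio of Polr3b to Polr3a, the catalytic pair of polymerase III, was 5 in one alpha-amanitin library and 0.125 in the other, against 0.337, 0.289 and 0.416 in wild type. Polr2b stood at 0.857 and 7.61 times Polr2a with alpha-amanitin, against 8.64, 5.12 and 7.11 times in wild type. Polr2i was at 0.549 and 7.6 FPKM with alpha-amanitin and at 3.57, 46.6 and 8.72 FPKM in wild type. Of the 252 FPKM values of subunit genes, 22 in 5 genes stood above the upper bound given beside them, most of them in Polr2b and Polr2j.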
